A study of Chlamydomonas reinhardtii with 8 samples.

Results

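The comparison set cells of the green alga Chlamydomonas reinhardtii 3 h after zinc had been returned against zinc-deficient cells at 0 h, just before the return. It took in every gene whose estimate had the status OK in both conditions, which held for 17697 of the 17737 genes in the table. Of these, 11467 genes had a mean FPKM of at least 1 over the 8 conditions of the series and were compared, and 6230 genes fell under that filter. FPKM is a fragment count corrected for transcript length and for library size, so levels of different genes can be set beside each other.

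All cells were of strain CC-4532, grown in Tris-acetate-phosphate medium under continuous light, and RNA came from whole cultures. The 3 h cells had passed through a first and a second round of culture without supplemented zinc and had then received 2.5 µM ZnCl2. The 0 h cells had the same history and no zinc addition. Zinc-replete cultures, named early and late, and resupplied cells at 1.5, 4.5, 12 and 24 h serve here as background. No culture carried for 3 h without zinc was analysed here, so the effect of zinc and that of 3 h of further growth and handling cannot be told apart.

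Zinc is a structural or catalytic cofactor of carbonic anhydrases, RNA polymerases, many transcription factors and proteases. Chlamydomonas cells short of zinc are known to make ZIP-family importers, which bring zinc into the cytosol, and zinc nutrition in this alga is known to be tied to that of copper. In a culture of single cells, a change in all cells and a change in part of them cannot be told apart. The photosynthetic identity of the cells was plain at both times. RBCS2, a small subunit of Rubisco, had 9060.3 FPKM (bounds 7067 to 11054) at 3 h against 7185 FPKM (bounds 5085 to 9286) at 0 h, and LHCBM1, a major antenna protein, had 5158 FPKM at 3 h against 7249.9 FPKM at 0 h. Of 9 gamete genes only 4 passed the filter. FUS1, the fusion gene of plus gametes, was listed at 0 at both times, but the mating type of the strain was not examined here. In a strain of the minus type FUS1 would read 0 whatever the state of the cells, so its value cannot tell whether gametes were present.

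A gene was called where its ratio, log2 of (FPKM + 1) at 3 h over (FPKM + 1) at 0 h, was at least 1 in size and the deposited bounds of both values did not overlap. There is 1 value per gene and condition and no replicate value, so no p-value can be given, and rose and fell describe these deposited values only. By this rule 1188 genes rose (10.4% of those tested), 665 fell (5.8%) and 9614 did neither. Few changes were very large. A log2 ratio of at least 2 was reached by 138 of the genes that rose and 99 of those that fell, a ratio of 3 by 11 and 30, and a ratio of 5 by 0 and 10. The largest ratios were those of genes that fell.

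The excess of genes that rose depends on scaling. Total FPKM was 882793 at 3 h and 720944 at 0 h, and the median log2 ratio of all tested genes was 0.11. With both conditions scaled to the same total, 759 genes rose and 1065 fell, and the median was -0.11. With median-of-ratios scaling, 922 rose and 854 fell, and the median was -0.01. List medians below are on the deposited scale and are to be read against 0.11. Counts of called list members are to be read against the 10.4% of all tested genes that rose and the 5.8% that fell. Genes that rose had a median of 24.6 FPKM at 3 h and 8.02 FPKM at 0 h, and genes that fell had 4.04 FPKM at 3 h and 14.9 FPKM at 0 h. Of the tested genes with a symbol, 339 of 2410 rose (14.1%) and 117 fell (4.85%). The plot of all tested genes shows both tails.

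**Figure D1:**
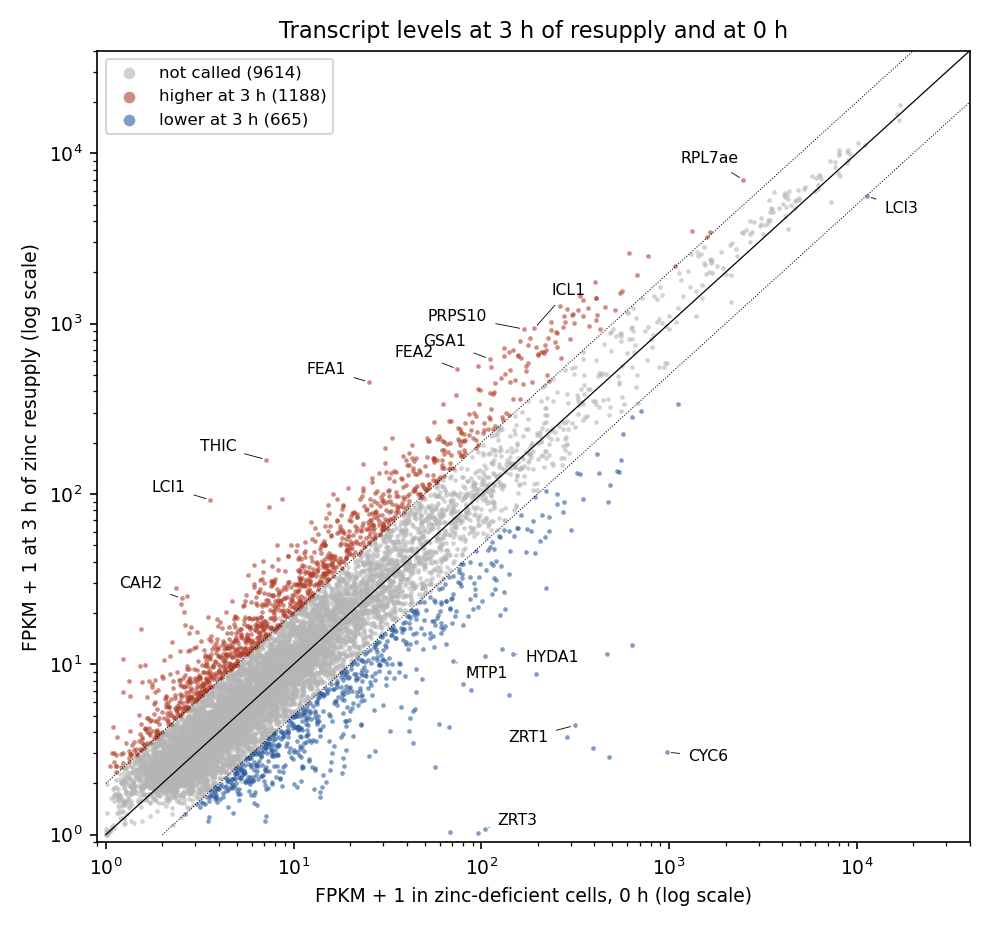
FPKM + 1 at 3 h of resupply (vertical, log scale) against FPKM + 1 at 0 h (horizontal, log scale), 1 point per tested gene; the solid line marks equal levels and the dotted lines a 2-fold ratio. The 1188 genes that rose lie in a broad band above the upper dotted line, while the 665 that fell include a few points far below the lower one, among them CYC6, ZRT1 and ZRT3.

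Transcripts of 4 zinc importers fell, and those of ZRT1 and ZRT3 were low by 3 h. ZRT3, a ZIP-family zinc importer (Cre13.g573950, chromosome 13, 1658225 to 1661356), had 0.0813 FPKM (bounds 0 to 0.165) at 3 h against 103 FPKM (bounds 81.9 to 125) at 0 h. ZRT1, a further importer of the family (Cre07.g351950, chromosome 7, 5608657 to 5616162), had 3.37 FPKM (bounds 2.76 to 3.98) at 3 h against 313 FPKM (bounds 233 to 393) at 0 h, a 92.8-fold loss. The upper bounds at 3 h lay far under the lower bounds at 0 h for both genes. ZRT3 already stood at the replete level, 0.144 FPKM in early and 0.135 FPKM in late replete cells, whereas ZRT1 was still above its own, 0.383 FPKM in early and 0.325 FPKM in late replete cells.

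ZRT2 fell to a lesser degree, with 10.3 FPKM at 3 h against 104 FPKM at 0 h, and ZRT5 had 8.42 FPKM at 3 h against 44.1 FPKM at 0 h, a 5.24-fold loss. Of 12 tested members of the ZIP family, 4 fell and 0 rose, and the list median was -0.15. The other 8 members were not called. ZRT4 had 41.3 FPKM (bounds 34.1 to 48.4) at 3 h against 23.8 FPKM (bounds 19.4 to 28.1) at 0 h, with a log2 ratio of 0.77. ZIP3 had 15.3 FPKM at 3 h against 12.3 FPKM at 0 h, and ZIP7 had 5.97 FPKM at 3 h against 9.05 FPKM at 0 h. The levels of ZIP1, ZIP2, ZIP4, ZIP6 and IRT2 lay between 0.965 and 2.84 FPKM at 3 h and between 0.41 and 3.22 FPKM at 0 h. IRT1 was under the filter on mean level and had 0.203 FPKM at 3 h against 3.56 FPKM at 0 h.

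MTP1, a cation diffusion facilitator that moves metal out of the cytosol, fell 7.37-fold, with 9.42 FPKM (bounds 7.8 to 11.03) at 3 h against 69.4 FPKM (bounds 55.5 to 83.3) at 0 h. It was the sole called gene among 4 tested members of its family, and MTP2, MTP3 and MTP5 had log2 ratios of 0.63, 0.76 and 0.08. ORC5, a subunit of the origin recognition complex that lies next to ZRT5 on chromosome 7 with 1360 bases between their spans, fell as well. It had 1.81 FPKM at 3 h against 17.3 FPKM at 0 h. Its span (6057666 to 6063027) did not overlap that of ZRT5 (6052112 to 6056305).

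**Figure D2:**
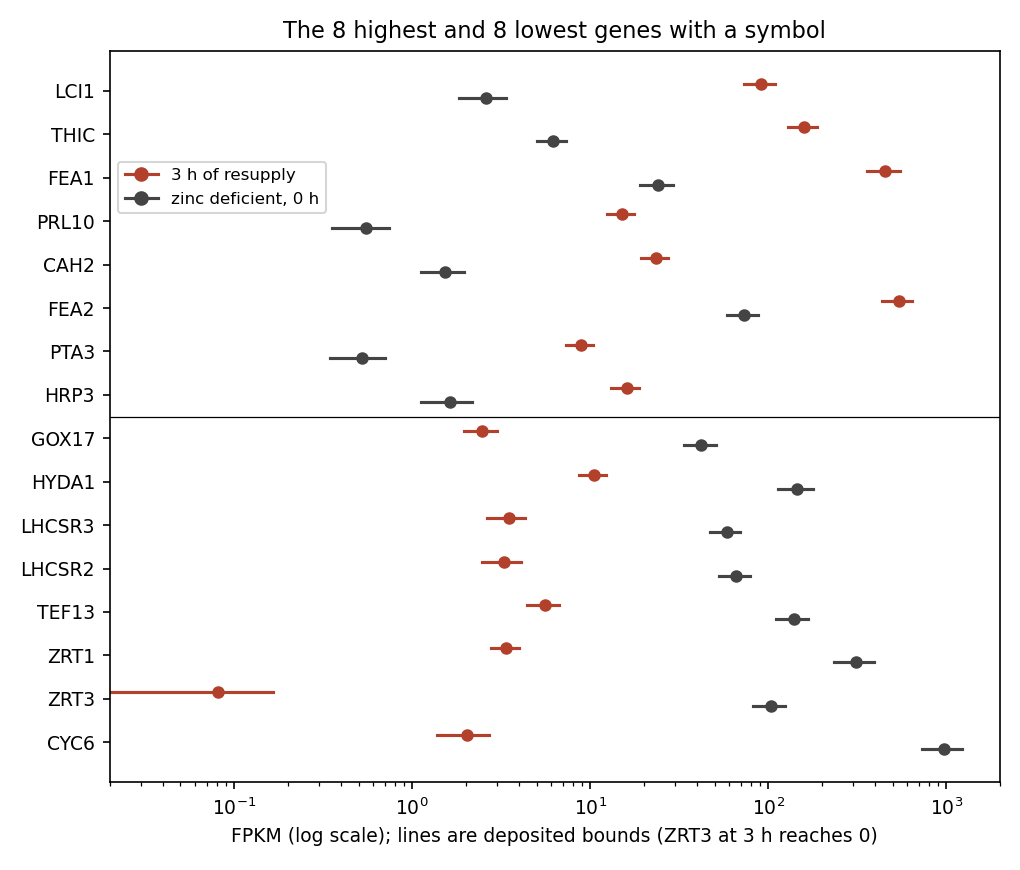
FPKM on a log scale at 3 h of resupply (red, upper of each pair) and in zinc-deficient cells at 0 h (grey, lower of each pair) for the 8 genes with a symbol that rose most and the 8 that fell most; lines are the deposited bounds, and the lower bound of ZRT3 at 3 h is 0. No pair of bounds overlaps, since the call required it, and the widest gap is that of ZRT3, 0.0813 against 103 FPKM.

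The copper list held the gene with the lowest ratio in the whole comparison. CYC6, the cytochrome c6 that replaces plastocyanin when copper is short (Cre16.g651050, chromosome 16, 1238558 to 1240109), had 2.05 FPKM (bounds 1.39 to 2.71) at 3 h against 976 FPKM (bounds 732 to 1220.4) at 0 h. That 477-fold loss was not complete, because CYC6 had 0.0139 FPKM in early and 0.0372 FPKM in late replete cells, and it stood at 976, 88.1, 2.05 and 0.23 FPKM at 0, 1.5, 3 and 4.5 h. Of 15 tested copper genes, 6 fell and 1 rose, with a list median of -0.76 (-1.02 under equal totals).

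Genes of the CTR family made up most of the other losses. CTR2, a copper transporter of that family, had 0.781 FPKM (bounds 0.559 to 1.003) at 3 h against 12.9 FPKM (bounds 10.4 to 15.3) at 0 h. That level was lower than in both replete cultures, 5.21 FPKM in early and 3.13 FPKM in late replete cells, and it was called lower against each. CTR3 had 8.09 FPKM at 3 h against 23.5 FPKM at 0 h, and CTR1, a copper importer, had 6.27 FPKM at 3 h against 13.8 FPKM at 0 h. HMA1, a heavy-metal ATPase, had 5.1 FPKM at 3 h against 15.9 FPKM at 0 h, and AMX2, a copper amine oxidase, had 0.908 FPKM at 3 h against 9.38 FPKM at 0 h. CTP2, a copper-transporting ATPase, was the member that rose, with 11.5 FPKM at 3 h against 4.27 FPKM at 0 h; it was not called under equal totals.

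CPX1 and CRD1, which are also known as targets of the copper response regulator CRR1, were not called. CPX1, a coproporphyrinogen oxidase, had 186 FPKM at 3 h against 178 FPKM at 0 h, and CRD1, a subunit of the aerobic cyclase of chlorophyll synthesis, had 69.8 FPKM at 3 h against 134 FPKM at 0 h. CRR1 itself had 30.7 FPKM at 3 h against 30.2 FPKM at 0 h. The bounds of CRD1 were apart, but its log2 ratio of -0.93 fell short of the threshold. The same held for FDX5 of the copper list, with 6.9 FPKM at 3 h against 12.3 FPKM at 0 h and a log2 ratio of -0.76. ATX1, a copper chaperone, had 76.2 FPKM at 3 h against 53.3 FPKM at 0 h.

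Most iron genes rose. FEA1, a secreted iron-assimilation protein (Cre12.g546550, chromosome 12, 8671306 to 8675189), had 453 FPKM (bounds 359 to 547) at 3 h against 24.2 FPKM (bounds 19.2 to 29.2) at 0 h, an 18.7-fold gain. Its neighbour FEA2 had 540.2 FPKM (bounds 434 to 647) at 3 h against 73.5 FPKM (bounds 58.9 to 88.04) at 0 h, and TEF22, on the other side of FEA1, had 67.6 FPKM at 3 h against 11.4 FPKM at 0 h. The spans of these 3 genes do not overlap; 458 bases separate FEA1 and FEA2, and 218 separate FEA1 and TEF22. FTR1, the high-affinity iron permease, had 63.9 FPKM at 3 h against 16.6 FPKM at 0 h, and FER1, a ferritin that stores iron in the plastid, had 281 FPKM at 3 h against 108 FPKM at 0 h.

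Of 7 tested iron genes, 5 rose and 0 fell, with a list median of 1.88. FOX2, of the ferroxidase family, had 3.27 FPKM at 3 h against 5.57 FPKM at 0 h and FRE1, a ferric reductase, had 0.272 FPKM at 3 h against 0.249 FPKM at 0 h; neither was called. FEA2 at 3 h stood far above both replete cultures, 57.2 FPKM in early and 85.4 FPKM in late replete cells. FEA1 was not called against the early replete culture and was called lower than the late one, 385 FPKM in early and 1152 FPKM in late replete cells.

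Thiamine synthesis rose in all 3 of its tested genes. THIC, which makes the pyrimidine part of thiamine (Cre05.g240850, chromosome 5, 3364142 to 3372831), had 158 FPKM (bounds 129 to 188) at 3 h against 6.16 FPKM (bounds 5.02 to 7.3) at 0 h, a 25.7-fold gain. THI4, the thiazole synthase, had 1759 FPKM at 3 h against 404 FPKM at 0 h, and THI10 had 4.07 FPKM at 3 h against 1.44 FPKM at 0 h. THI10 was not called under either rescaling. THIC was at its highest level of the 8 conditions at 3 h, with 6.16, 67.8, 158 and 146 FPKM at 0, 1.5, 3 and 4.5 h and 79.1 FPKM in early and 62.99 FPKM in late replete cells. Among methionine and one-carbon genes, 1 of 4 rose. This was SAH1, the S-adenosylhomocysteine hydrolase, with 3448 FPKM at 3 h against 1660 FPKM at 0 h, a gain not called under either rescaling.

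Genes of the carbon-concentrating mechanism, which brings bicarbonate to Rubisco when CO2 is low, rose about as often as all tested genes, and their list held the gene with the highest ratio of all tested genes. LCI1, a plasma membrane bicarbonate transporter (Cre03.g162800, chromosome 3, 2885264 to 2887871), had 91.3 FPKM (bounds 73.5 to 109) at 3 h against 2.59 FPKM (bounds 1.83 to 3.35) at 0 h, a 35.2-fold gain. CAH1, the periplasmic carbonic anhydrase, had 1224 FPKM at 3 h against 286 FPKM at 0 h. CAH2, a close paralog encoded 1092 bases away, had 23.4 FPKM at 3 h against 1.54 FPKM at 0 h; reads shared between the CAH1 and CAH2 sequences could have been divided between them. CAH1 and LCI1 were called higher than both replete cultures, with 548 FPKM in early and 8.1 FPKM in late replete cells for CAH1.

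Of the mitochondrial and envelope members of the same mechanism given here, CAH4 alone was called. CAH4, a mitochondrial carbonic anhydrase, fell, with 29.1 FPKM at 3 h against 76.3 FPKM at 0 h, and its paralog CAH5 had 22.9 FPKM at 3 h against 26.5 FPKM at 0 h and was not called. CCP1, a low-CO2 protein of the plastid envelope, had 35.1 FPKM at 3 h against 29.99 FPKM at 0 h, its paralog CCP2 had 45.4 FPKM at 3 h against 54.4 FPKM at 0 h, and NAR1.2, a bicarbonate channel, had 59.7 FPKM at 3 h against 49.1 FPKM at 0 h. These genes had stood higher at 1.5 h. CAH4 had 76.3, 198, 29.1 and 88.6 FPKM at 0, 1.5, 3 and 4.5 h, CCP1 had 29.99, 155, 35.1 and 65.8, and LCR1, a transcription factor of the low-CO2 response, had 6.96, 14.7, 8.18 and 8.01. So 3 h was the low point between higher levels at 1.5 and 4.5 h for CAH4 and CCP1.

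Of 11 tested carbonic anhydrases, 2 rose (18.2%, against 10.4% of all tested genes) and 1 fell (9.09%, against 5.8%). Their median was 0.05, and -0.24 under equal totals. CAH3 of the thylakoid lumen had 136 FPKM at 3 h against 131 FPKM at 0 h, and CAH6, CAH7 and CAH8 had log2 ratios of -0.24, -0.84 and 0.23. The gamma-type members CAG1, CAG2 and CAG3 lay between -0.14 and 0.15. Of 28 tested genes on the list of carbon-concentrating and low-CO2 inducible genes, 3 rose (10.7%, against 10.4% of all tested genes) and 4 fell (14.3%, against 5.8%), with a median of 0.05 that was -0.17 under equal totals.

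LCI5, the linker protein of the pyrenoid, rose, with 624 FPKM at 3 h against 265 FPKM at 0 h, and so did LCI26, with 3.87 FPKM at 3 h against 1.03 FPKM at 0 h; LCI5 was not called under equal totals. LCIB and LCIC, which form a complex around the pyrenoid, had 433 FPKM at 3 h against 218 FPKM at 0 h and 243 FPKM at 3 h against 122 FPKM at 0 h and just missed the threshold with log2 ratios of 0.99 and 0.99. In all 21 members of the list were not called, and LCI33, LCI9, LCI30 and LCI3 fell. LCI33 had 4.64 FPKM at 3 h against 36.2 FPKM at 0 h, LCI9 had 36.97 FPKM at 3 h against 126 FPKM at 0 h and LCI30 had 131 FPKM at 3 h against 423 FPKM at 0 h. LCI3 had 5614 FPKM (bounds 4423 to 6806) at 3 h against 11401 FPKM (bounds 7789 to 15012) at 0 h; its span overlaps that of the gene g10013, so reads could have been divided between them.

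**Figure D3:**
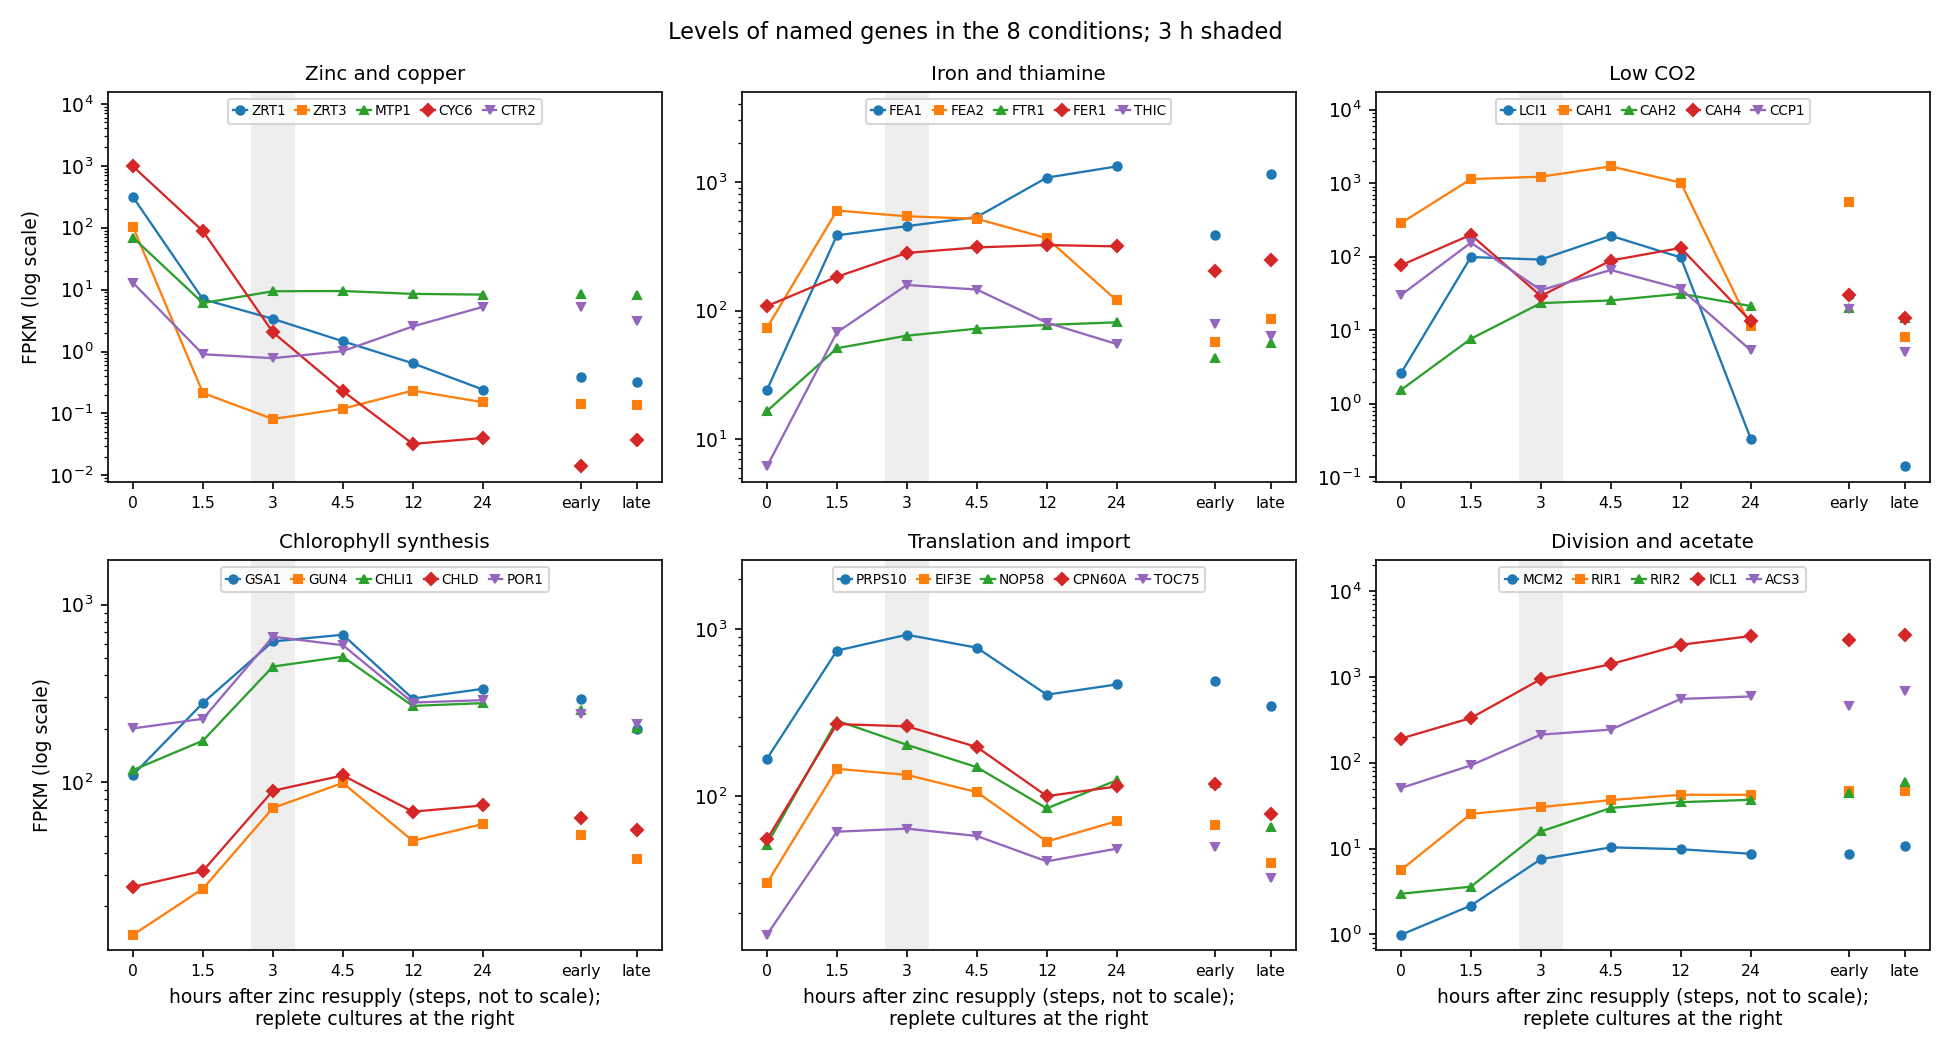
FPKM (log scale) of 30 genes in the 8 conditions, in 6 panels, with hours after zinc resupply along each panel in equal steps, the replete cultures at the right and 3 h shaded. The zinc and copper genes ZRT1, ZRT3, CYC6, CTR2 and MTP1 are far below their 0 h level at 3 h; GSA1, GUN4, CHLI1, CHLD and POR1 are well above it; CAH4 and CCP1 dip between 1.5 and 4.5 h.

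A broad gain over 0 h lay in the machinery of protein synthesis, and much of it was already present at 1.5 h. Median levels at 0, 1.5 and 3 h were 219, 638 and 788 FPKM for plastid ribosomal proteins. For translation factors they were 49.0, 121 and 119 FPKM. Of 36 tested nuclear genes for plastid ribosomal proteins, 34 rose and 0 fell, against 10.4% of all tested genes that rose, and the list median was 1.87 (1.58 under equal totals). PRPS10, a small-subunit protein, had 928 FPKM (bounds 747 to 1109) at 3 h against 168 FPKM (bounds 134 to 201) at 0 h, PSRP3 had 793 FPKM at 3 h against 159 FPKM at 0 h and PRPL17, a large-subunit protein, had 679 FPKM at 3 h against 139.7 FPKM at 0 h. In groups split off after their values had been seen, all 22 large-subunit genes named PRPL rose, with ratios from 1.51 to 2.27. So did all 10 named PRPS, from 1.67 to 2.46. The 2 members of the list that were not called were PSRP1, with 95.8 FPKM at 3 h against 56.9 FPKM at 0 h, and PSRP4, with 12.7 FPKM at 3 h against 7.96 FPKM at 0 h. They are named because they were the exceptions. Together the 36 genes held 3.55% of total FPKM at 3 h and 1.18% at 0 h.

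Few genes for cytosolic and mitochondrial ribosomal proteins were called. Of 51 cytosolic members, 1 rose and 1 fell, with a median of 0.21 that was -0.08 under equal totals, and of 37 mitochondrial members 1 rose and 0 fell, with a median of 0.41. RPL7ae had 6989 FPKM at 3 h against 2479 FPKM at 0 h. RPS27e2, 1 of several gene copies for the same ribosomal protein, had 18.3 FPKM at 3 h against 83.96 FPKM at 0 h. The mitochondrial member that rose was MRPS6, with 244 FPKM at 3 h against 74.3 FPKM at 0 h. Cytosolic members held 39.9% of total FPKM at 3 h and 42.999% at 0 h.

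Translation factors rose in 17 of 27 tested genes and fell in 1, with a median of 1.53. All 9 tested subunits of eIF3, the complex that brings ribosome and messenger RNA together, were among them, with ratios from 1.53 to 2.12; this group was singled out after its values had been seen. EIF3E had 134 FPKM at 3 h against 30.1 FPKM at 0 h, EIF3B had 134 FPKM at 3 h against 33.9 FPKM at 0 h and EIF3A had 76.6 FPKM at 3 h against 19.5 FPKM at 0 h. EFG6, of the elongation factor G family, fell, with 22.3 FPKM at 3 h against 55.7 FPKM at 0 h.

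Nucleolar and rRNA-processing genes rose in 9 of 10 cases, with a median of 1.48. NOP10, a protein of the pseudouridylation complex, had 172 FPKM at 3 h against 40.1 FPKM at 0 h, NOP58, a core protein of box C/D particles, had 203 FPKM at 3 h against 51.2 FPKM at 0 h, and NOP1, the fibrillarin methyltransferase, had 338 FPKM at 3 h against 95.996 FPKM at 0 h. NOP58 and NOP10 had been higher still at 1.5 h, at 284 and 246 FPKM. The median of the list from 1.5 to 3 h was -0.50.

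Most tested genes of plastid import rose, as did subunits of the plastid chaperonin. Of 10 genes for import and targeting, 7 rose and 0 fell, with a median of 1.30. TOC34, a receptor of the outer envelope, had 63.9 FPKM at 3 h against 13.7 FPKM at 0 h, TOC75, the import channel, had 63.8 FPKM at 3 h against 14.7 FPKM at 0 h, and TIC20 of the inner envelope had 148 FPKM at 3 h against 39.2 FPKM at 0 h. Of 67 tested chaperones as a whole, 10 rose (14.9%, against 10.4% of all tested genes) and 6 fell (8.96%, against 5.8%), with a median of 0.51. CPN60A, CPN60B2 and CPN20, subunits of the plastid chaperonin, had 262 FPKM at 3 h against 55.1 FPKM at 0 h, 404 FPKM at 3 h against 97.01 FPKM at 0 h and 391 FPKM at 3 h against 111 FPKM at 0 h. HSP22E, a small heat shock protein, fell, with 337 FPKM (bounds 274 to 399.6) at 3 h against 1121 FPKM (bounds 831 to 1410.5) at 0 h, as did HSP22B, with 0.808 FPKM at 3 h against 4.78 FPKM at 0 h, and CDJ3, a plastid J-domain protein, with 6.4 FPKM at 3 h against 19.01 FPKM at 0 h. None of the 8 tested CCT subunits of the cytosolic chaperonin, a group singled out after its values had been seen, was called. Their ratios ran from 0.52 to 0.90.

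Proteasome genes stood near their 0 h level. Of 21 tested proteasome genes none was called, and their ratios ran from -0.34 to 0.26. The median of this list was 0.98 from 1.5 to 3 h. UBA1, a ubiquitin-activating enzyme, fell, with 54.9 FPKM at 3 h against 125 FPKM at 0 h, and was the sole called gene of 17 in ubiquitin conjugation. Of 23 plastid proteases, 7 rose (30.4%, against 10.4% of all tested genes) and 3 fell (13.04%, against 5.8%). DEG9 had 53.6 FPKM at 3 h against 11.5 FPKM at 0 h, while DEG11 had 39.4 FPKM at 3 h against 119 FPKM at 0 h and DEG1 had 5.87 FPKM at 3 h against 20.7 FPKM at 0 h. Under either rescaling 1 member of the list rose.

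**Figure D4:**
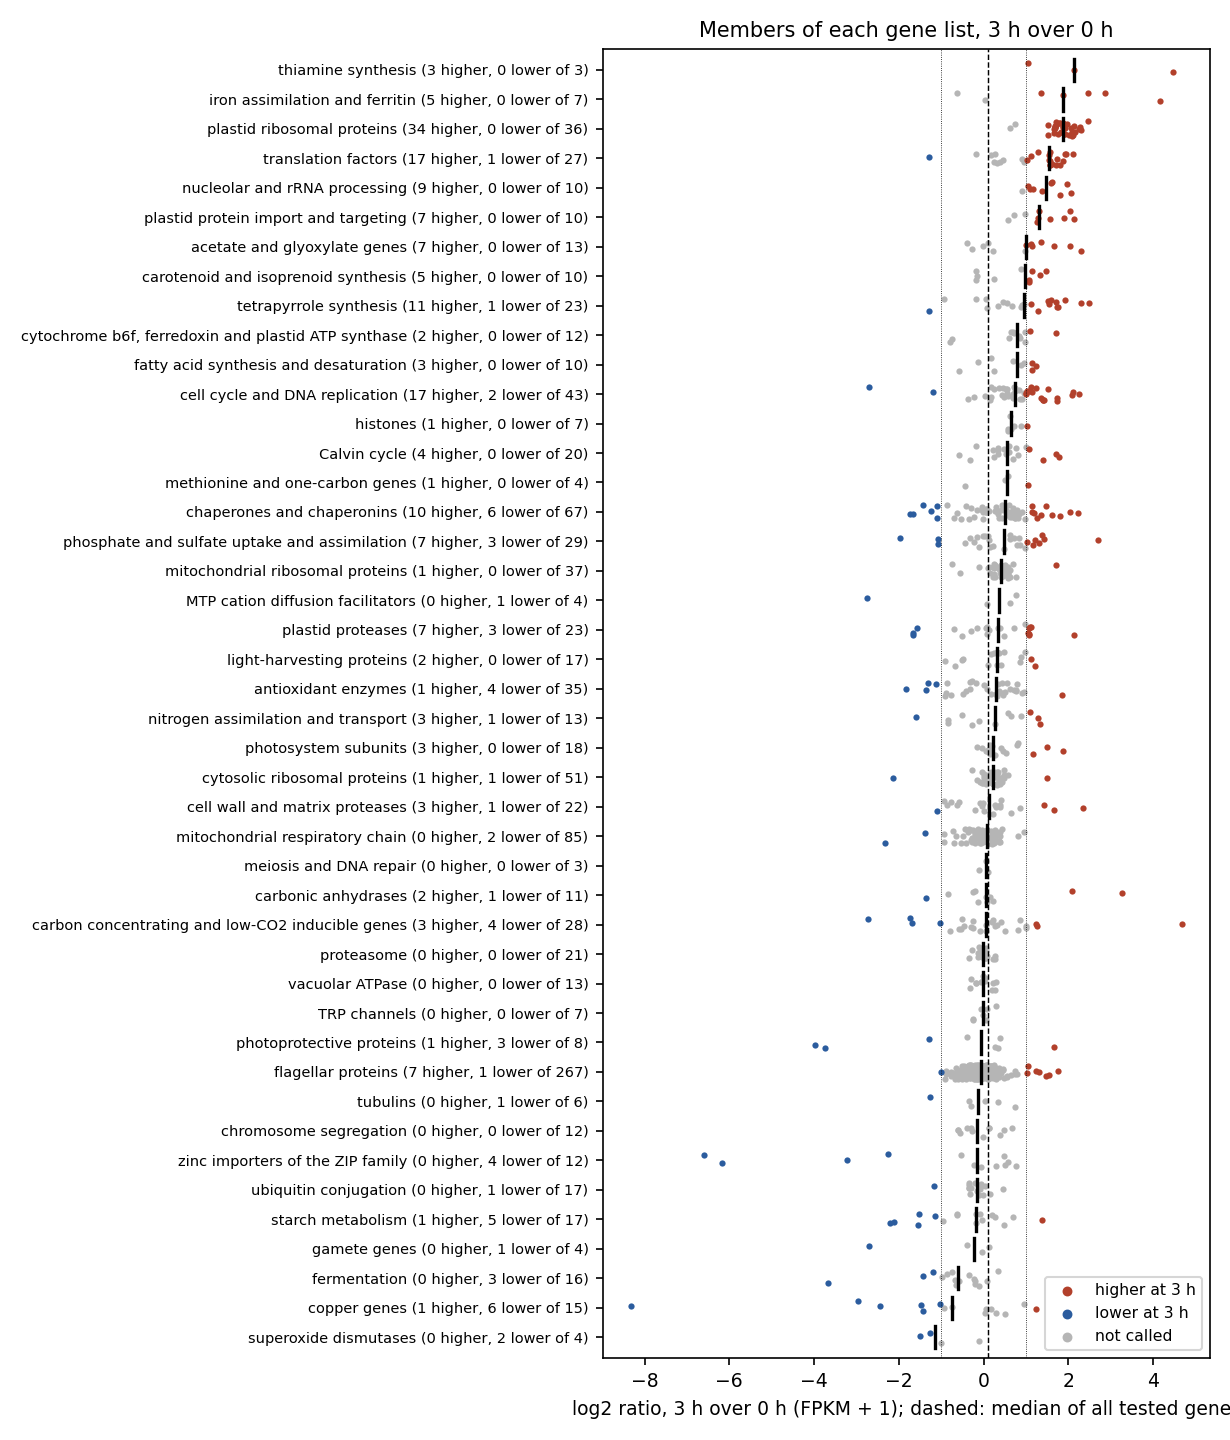
Log2 ratio of 3 h over 0 h for every tested member of 44 gene lists (points; red rose, blue fell, grey not called), ordered by list median (black bars); dotted lines mark a 2-fold ratio and the dashed line the median of all tested genes, 0.11. Plastid ribosomal protein genes form a tight cluster around 1.87, whereas ZIP and copper genes are strung out to ratios below -6.

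Many genes of chlorophyll synthesis rose. Of 23 tested tetrapyrrole genes, 11 rose and 1 fell, with a median of 0.96 (0.67 under equal totals). GSA1, which completes 5-aminolevulinate (Cre03.g158000, chromosome 3, 2272727 to 2276164), had 619.9 FPKM (bounds 498 to 742) at 3 h against 109.8 FPKM (bounds 87.3 to 132) at 0 h. GUN4, an activator of magnesium chelatase, had 71.5 FPKM (bounds 58.7 to 84.3) at 3 h against 13.8 FPKM (bounds 11.3 to 16.3) at 0 h, and the chelatase subunits CHLI1, CHLI2 and CHLD had 448 FPKM at 3 h against 117 FPKM at 0 h, 113 FPKM at 3 h against 38.8 FPKM at 0 h and 89.4 FPKM at 3 h against 25.7 FPKM at 0 h. POR1, the light-dependent protochlorophyllide reductase, had 659 FPKM at 3 h against 201 FPKM at 0 h. The uroporphyrinogen decarboxylases UPD1, UPD2 and UPD3 rose 3.35-fold, 3.09-fold and 2.48-fold, PPX1, protoporphyrinogen oxidase, rose 3.000-fold, and CHLG, chlorophyll synthase, rose 2.19-fold. CHLG was not called under either rescaling, and the span of UPD3 overlaps that of PRP19.

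The list stood higher at 3 h than at 1.5 h. Its median log2 ratio was 1.07 from 1.5 to 3 h and 0.28 from 3 to 4.5 h. CHLD had 25.7, 31.6, 89.4 and 109 FPKM at 0, 1.5, 3 and 4.5 h, and PPX1 had 17.9, 16.004, 53.8 and 71.3. Members that were not called included HEM1, glutamyl-tRNA reductase, with 85.1 FPKM at 3 h against 53.4 FPKM at 0 h. ALAD1 had 221 FPKM at 3 h against 116 FPKM at 0 h, and DVR1 had 75.8 FPKM at 3 h against 40.8 FPKM at 0 h. CTH1, the second cyclase subunit gene, had 471 FPKM at 3 h against 241 FPKM at 0 h. The bounds of HEM1, ALAD1, DVR1 and CTH1 were apart, but their log2 ratios of 0.66, 0.92, 0.88 and 0.96 missed the threshold. CAO1, which makes chlorophyll b, had 41.9 FPKM at 3 h against 30.02 FPKM at 0 h. CPX2, HEM2, HEM4 and HMO1 had ratios from -0.19 to 0.56. HMO2, a heme oxygenase, fell, with 1.01 FPKM at 3 h against 3.94 FPKM at 0 h.

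Genes for light-harvesting proteins and photosystem subunits rose in small numbers, beside 10.4% of all tested genes. Of 17 light-harvesting genes 2 rose (11.8%) and 0 fell, with a median of 0.33 (0.03 under equal totals). These were LHCA4, with 1209 FPKM at 3 h against 518 FPKM at 0 h, and LHCA5, with 924 FPKM at 3 h against 426 FPKM at 0 h; neither was called under equal totals. Of 18 photosystem subunits 3 rose (16.7%), with a median of 0.23 that was -0.02 under equal totals. They were PSBP6, PSBP2 and PSBP4, of a family of lumen proteins, with 76.1 FPKM at 3 h against 19.98 FPKM at 0 h, 17.9 FPKM at 3 h against 5.73 FPKM at 0 h and 41.2 FPKM at 3 h against 17.9 FPKM at 0 h; PSBP4 was not called under equal totals. FNR1, the ferredoxin-NADP reductase, had 565 FPKM at 3 h against 172 FPKM at 0 h, and FDX3, a ferredoxin, had 108 FPKM at 3 h against 50.2 FPKM at 0 h; FDX3 was not called under either rescaling.

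The carotenoid and isoprenoid list rose in 5 of 10 genes, with a median of 0.97, and 2 of 10 rose under either rescaling. DXR1, CMK1 and HDS1, enzymes of the plastid isoprenoid pathway, had 96.7 FPKM at 3 h against 34.02 FPKM at 0 h, 15.9 FPKM at 3 h against 5.68 FPKM at 0 h and 107 FPKM at 3 h against 48.3 FPKM at 0 h. In fatty acid synthesis 3 of 10 rose (30%, against 10.4% of all tested genes), and none of these was called under equal totals. KAS1 and KAS2, condensing enzymes, had 113 FPKM at 3 h against 47.6 FPKM at 0 h and 29.5 FPKM at 3 h against 12.8 FPKM at 0 h, and FAD7, a plastid desaturase, had 208 FPKM at 3 h against 93.1 FPKM at 0 h. In the Calvin cycle 4 of 20 rose (20%, against 10.4%) and 0 fell. TRK1, the transketolase, had 1410.3 FPKM at 3 h against 409 FPKM at 0 h, RPE2 had 59.2 FPKM at 3 h against 17.4 FPKM at 0 h and RBCS1, the second Rubisco small-subunit gene, had 3498 FPKM at 3 h against 1332 FPKM at 0 h. RBCS1 and RBCS2 are near-identical and adjacent, so reads could have been divided between them.

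Some members of the photoprotective list fell. LHCSR2 and LHCSR3, antenna-like proteins that discharge excess light energy, had 3.27 FPKM (bounds 2.48 to 4.07) at 3 h against 66.1 FPKM (bounds 53.2 to 79.1) at 0 h and 3.48 FPKM (bounds 2.65 to 4.31) at 3 h against 58.6 FPKM (bounds 47.3 to 69.9) at 0 h. These are near-identical copies separated by 9219 bases, and their values are uncertain singly. ELI4, an early light-inducible protein, had 31.1 FPKM at 3 h against 77.9 FPKM at 0 h, while ELI2 of the same family rose, with 260.2 FPKM at 3 h against 81.4 FPKM at 0 h. In all, 3 of 8 tested members fell and 1 rose.

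Genes of acetate use were among those that rose. Of 13 acetate and glyoxylate genes 7 rose and 0 fell, with a median of 1.01, and 4 rose under either rescaling. ICL1, isocitrate lyase, had 938 FPKM (bounds 739 to 1136) at 3 h against 191 FPKM (bounds 149 to 233) at 0 h, ACS3, an acetyl-CoA synthetase, had 212 FPKM at 3 h against 50.7 FPKM at 0 h, and CIS2, the glyoxysomal-type citrate synthase, had 128 FPKM at 3 h against 39.9 FPKM at 0 h. Fermentation genes fell in 3 of 16 cases (18.75%, against 5.8% of all tested genes) and rose in 0, with a median of -0.61. HYDA1, an iron hydrogenase, had 10.5 FPKM (bounds 8.71 to 12.3) at 3 h against 146 FPKM (bounds 114 to 178) at 0 h, ADH1, the bifunctional aldehyde and alcohol dehydrogenase, had 68.2 FPKM at 3 h against 187 FPKM at 0 h, and HCP3, a hybrid cluster protein, had 1.68 FPKM at 3 h against 5.16 FPKM at 0 h. HYDA1 stood below both replete cultures, 63.9 FPKM in early and 99.2 FPKM in late replete cells.

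Starch genes fell in 5 of 17 cases (29.4%, against 5.8% of all tested genes) and rose in 1 (5.88%, against 10.4%). SSS3, a starch synthase (the copy Cre06.g282000), had 7.48 FPKM at 3 h against 38.02 FPKM at 0 h, SBE3, a branching enzyme, had 26.6 FPKM at 3 h against 118 FPKM at 0 h, and GWD2, a glucan water dikinase, had 6.02 FPKM at 3 h against 19.6 FPKM at 0 h. SSS2 rose, with 36.2 FPKM at 3 h against 13.3 FPKM at 0 h. SBE3 was also below both replete cultures, 69.2 FPKM in early and 97.5 FPKM in late replete cells. GOX17, of the copper radical oxidase family, had 2.47 FPKM (bounds 1.95 to 2.98) at 3 h against 42.2 FPKM (bounds 33.7 to 50.7) at 0 h, and TEF13 had 5.59 FPKM (bounds 4.45 to 6.73) at 3 h against 139 FPKM (bounds 110.4 to 168) at 0 h.

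Several DNA replication genes rose from low levels. Of 43 tested cell cycle genes, 17 rose and 2 fell, with a median of 0.74. RIR1 and RIR2, subunits of ribonucleotide reductase, had 30.4 FPKM at 3 h against 5.62 FPKM at 0 h and 15.8 FPKM at 3 h against 2.98 FPKM at 0 h, and MCM2, of the replicative helicase, had 7.52 FPKM (bounds 6.24 to 8.8) at 3 h against 0.991 FPKM (bounds 0.718 to 1.26) at 0 h. Of the 6 helicase genes MCM2 to MCM7, taken out of the list after their values had been seen, 5 rose, and their median level was 1.22, 2.17, 7.32 and 9.94 FPKM at 0, 1.5, 3 and 4.5 h. RIR2 likewise had 2.98, 3.6, 15.8 and 29.7 FPKM at these times. The 2 members that fell were ORC5 and CDC48, a segregase that extracts ubiquitylated proteins, with 46.01 FPKM at 3 h against 107 FPKM at 0 h.

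Chromosome segregation, tubulin, flagellar and histone genes were mostly not called. Of 12 tested chromosome segregation genes 0 rose and 0 fell, with ratios from -0.62 to 0.67. Of 6 tubulin genes TUD1, delta tubulin, fell, with 2.42 FPKM at 3 h against 7.28 FPKM at 0 h, and 0 rose. TUA1, an alpha tubulin, had 443 FPKM at 3 h against 541 FPKM at 0 h, TUB1 and TUB2, near-identical beta tubulins, had 281 FPKM at 3 h against 357 FPKM at 0 h and 60.1 FPKM at 3 h against 35.8 FPKM at 0 h, and TUG1, gamma tubulin, had 8.69 FPKM at 3 h against 8.51 FPKM at 0 h; TUE1, epsilon tubulin, had 2.64 FPKM at 3 h against 1.88 FPKM at 0 h. The tubulin list stood higher than at 1.5 h, with a median of 0.84 from 1.5 to 3 h. Of 267 flagellar genes 7 rose (2.62%, against 10.4% of all tested genes) and 1 fell (0.375%, against 5.8%). The median of the flagellar list was -0.06. FAP269, FAP224 and FAP24 had 72.2 FPKM at 3 h against 20.8 FPKM at 0 h, 228 FPKM at 3 h against 77.2 FPKM at 0 h and 1520.4 FPKM at 3 h against 549.7 FPKM at 0 h, and FAP291 had 37.6 FPKM at 3 h against 76.5 FPKM at 0 h. Of 56 histone genes 7 passed the filter, and HTA38 rose, with 4.42 FPKM at 3 h against 1.66 FPKM at 0 h; it was not called under either rescaling.

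Of 4 tested superoxide dismutases, which remove superoxide, 2 fell and 0 rose, with a list median of -1.14. MSD1 and MSD2, manganese enzymes, had 171 FPKM (bounds 139.5 to 202) at 3 h against 415 FPKM (bounds 319.8 to 509) at 0 h and 23.7 FPKM (bounds 19.6 to 27.7) at 3 h against 68.5 FPKM (bounds 54.8 to 82.1) at 0 h and fell, while MSD3 had 2.23 FPKM at 3 h against 2.5 FPKM at 0 h. FSD1, the iron enzyme, had 342 FPKM (bounds 278 to 406) at 3 h against 683 FPKM (bounds 521 to 844) at 0 h; its bounds were apart and its log2 ratio of -0.995 just missed the threshold. MSD4 was under the filter. Of 35 other antioxidant enzymes 4 fell (11.4%, against 5.8% of all tested genes) and 1 rose (2.86%, against 10.4%). GPX1, a glutathione peroxidase, had 19.6 FPKM at 3 h against 72.4 FPKM at 0 h, NTR2, a thioredoxin reductase, had 7.9 FPKM at 3 h against 21.9 FPKM at 0 h, MSRA5, a methionine sulfoxide reductase, had 11.1 FPKM at 3 h against 29.1 FPKM at 0 h and GRX6, a glutaredoxin, rose with 84.5 FPKM at 3 h against 22.6 FPKM at 0 h. Under equal totals 8 of these fell.

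Phosphate and sulfate genes moved in both directions. Of 29 tested members 7 rose (24.1%, against 10.4% of all tested genes) and 3 fell (10.3%, against 5.8%). PTA3, PTB2 and PTB3, phosphate transporters, had 8.84 FPKM (bounds 7.3 to 10.4) at 3 h against 0.525 FPKM (bounds 0.345 to 0.705) at 0 h, 237 FPKM at 3 h against 87.2 FPKM at 0 h and 13.7 FPKM at 3 h against 4.62 FPKM at 0 h. SLT1 and SLT2, sulfate transporters, had 54.6 FPKM (bounds 44.5 to 64.6) at 3 h against 218 FPKM (bounds 165 to 272) at 0 h and 103 FPKM at 3 h against 219 FPKM at 0 h, and SAT1, a serine acetyltransferase of cysteine synthesis, had 32.1 FPKM at 3 h against 69.3 FPKM at 0 h. SLT1 remained above its replete level, 1.69 FPKM in early and 1.14 FPKM in late replete cells. SLT3, singled out as the neighbour of SLT2 with 48 bases between their spans, had a log2 ratio of 1.01, opposite in direction to SLT2. In nitrogen metabolism 3 of 13 rose (23.1%) and 1 fell (7.69%), with a median of 0.28 that was -0.01 under equal totals. GSF1, a ferredoxin-dependent glutamate synthase, had 94.7 FPKM at 3 h against 37.2 FPKM at 0 h, the ammonium transporters AMT7 and AMT6 had 28.5 FPKM at 3 h against 11.1 FPKM at 0 h and 3.63 FPKM at 3 h against 1.16 FPKM at 0 h, and GDH1, a glutamate dehydrogenase, had 12.1 FPKM at 3 h against 38.7 FPKM at 0 h; AMT6 was not called under either rescaling.

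Some lists held few or no called genes. None of 13 vacuolar ATPase, 7 TRP channel or 3 meiosis and DNA repair genes was called. In the mitochondrial respiratory chain 2 of 85 fell and 0 rose. NUOS4b, a complex I subunit, had 4.41 FPKM at 3 h against 25.99 FPKM at 0 h and NDA3, an alternative NADH dehydrogenase, had 22.3 FPKM at 3 h against 60.1 FPKM at 0 h. The 22 tested cell wall and matrix protease genes were called about as often as all genes, and 3 rose (13.6%, against 10.4% of all tested genes) and 1 fell (4.55%, against 5.8%). MMP9, a matrix metalloprotease, had 10.1 FPKM at 3 h against 1.19 FPKM at 0 h, the pherophorins PHC5 and PHC3 had 28.1 FPKM at 3 h against 8.21 FPKM at 0 h and 1116 FPKM at 3 h against 413 FPKM at 0 h, and GAS28, a hydroxyproline-rich wall protein known from gametes, had 26.6 FPKM at 3 h against 58.3 FPKM at 0 h. NSG13, of the gamete list, had 5.88 FPKM at 3 h against 43.9 FPKM at 0 h. Among the remaining genes with the highest ratios, PRL10 had 15.1 FPKM (bounds 12.5 to 17.6) at 3 h against 0.548 FPKM (bounds 0.355 to 0.741) at 0 h and HRP3 had 16.02 FPKM (bounds 13.1 to 18.9) at 3 h against 1.64 FPKM (bounds 1.12 to 2.16) at 0 h.

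Most genes that changed carry an identifier alone, as do most tested genes. Of 9057 tested genes with no symbol 849 rose (9.37%, against 10.4% of all tested genes) and 548 fell (6.05%, against 5.8%). The second lowest ratio of all belonged to 1 of them, g15199 (chromosome 14, 3509515 to 3515737), with 1.86 FPKM (bounds 1.42 to 2.31) at 3 h against 476 FPKM (bounds 355 to 598) at 0 h, a 255-fold loss. It remained above its replete levels, 0.0979 FPKM in early and 0.104 FPKM in late replete cells.

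The replete cultures give a scale for these changes. Against the early replete culture 367 genes were higher at 3 h (3.2%) and 368 lower (3.21%) of 11468 tested. Against the late replete culture 1201 were higher (10.5%) and 629 lower (5.48%) of 11474; with equal totals 757 were higher and 991 lower. The 3 h value enters these ratios as well as those against 0 h. Plastid ribosomal protein genes at 3 h stood above both replete cultures, with list medians of 0.80 against early and 1.31 against late, and 5 of 36 and 33 of 36 were called higher. Translation factors had medians of 0.76 and 1.40, and the nucleolar list 0.56 and 1.13. Of the tetrapyrrole genes 2 of 23 were called higher and 1 lower than early, and 4 higher and 0 lower than late. GSA1 and POR1, with 293 FPKM in early and 199 FPKM in late replete cells and 242 FPKM in early and 212 FPKM in late replete cells, were called higher than both.

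Other lists had medians under the replete level at 3 h. The acetate and glyoxylate list had medians of -0.68 against early and -0.63 against late, and 5 of 13 were called lower than each. ICL1 had 2707 FPKM in early and 3082 FPKM in late replete cells, and ACS3 had 458 FPKM in early and 675 FPKM in late replete cells. Light-harvesting genes had medians of -0.69 and -0.46 over the 14 members with an estimate in the replete cultures, and photosystem subunits had -0.64 and -0.48. Cell cycle genes had -0.08 and -0.25, and 5 and 9 of 43 were called lower. The starch and fermentation lists included members called lower than a replete culture. For starch these were 2 of 17 against early and 4 of 17 against late, and for fermentation 4 of 16 against early and 5 of 16 against late.

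**Figure D5:**
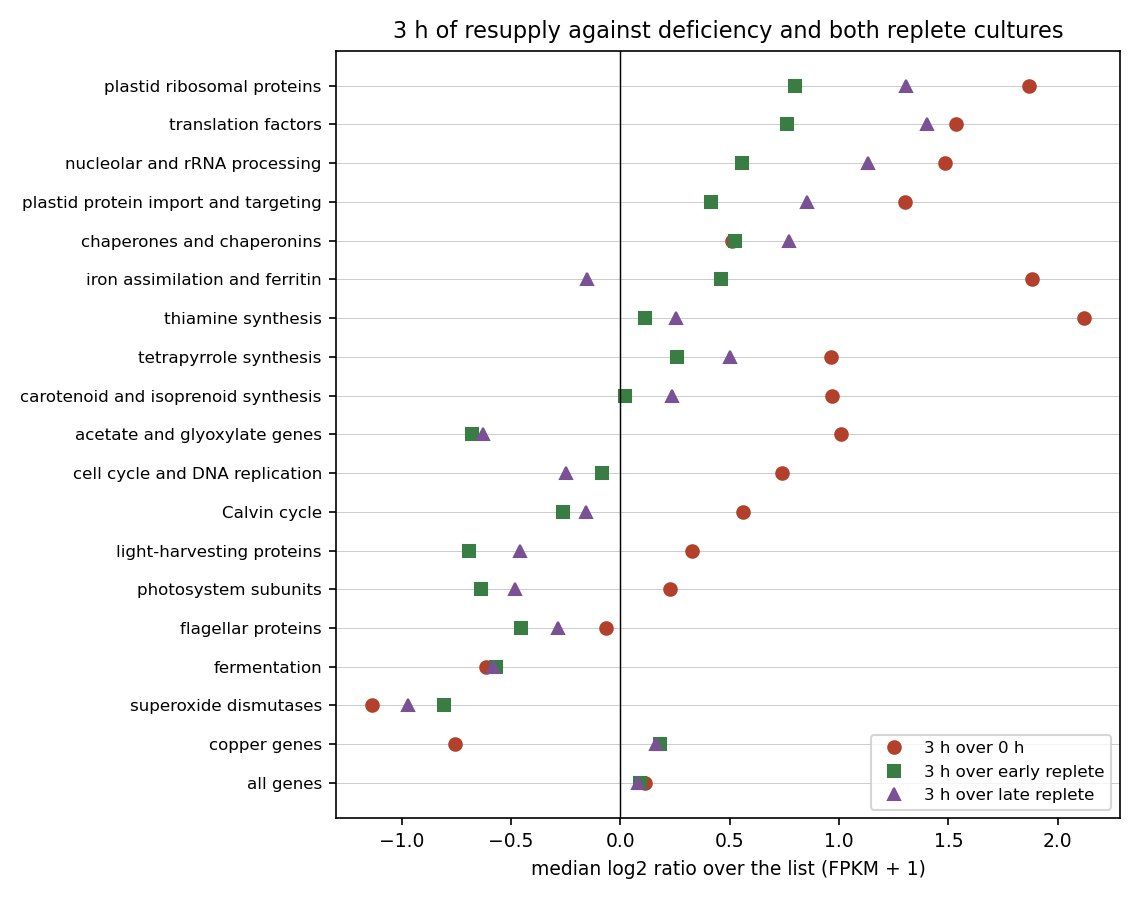
Median log2 ratio over each gene list for 3 h over 0 h (red circles), 3 h over early replete (green squares) and 3 h over late replete (purple triangles). Plastid ribosomal protein genes at 3 h lie above 0 h and both replete cultures, with medians of 1.87, 0.80 and 1.31, whereas acetate and glyoxylate genes lie 1.01 above 0 h and below both replete cultures; photosystem subunits sit at 0.23 on the deposited scale and at -0.02 under equal totals against 0 h.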

How the data were processed

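Libraries were made with a stranded mRNA kit, per the labels' protocols. The submitters' processing notes name TopHat2 and Cuffdiff. For every gene, the deposited table gives an FPKM, its lower and upper bounds and a status in each condition, as its headers show. Although 4 biological replicates of a condition are named in the design text, 1 value stands for each condition, and how the authors combined replicates is not stated. The level of the bounds, sequencing depth, strand setting and genome build are not stated by the labels or headers. Gene spans, written from 1, equalled those of assembly Chlamydomonas_reinhardtii_v5.5 in the RefSeq gene table for 11552 of 11713 matched identifiers. Symbols (2756 genes) are those of the deposited table.

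Ratios were log2((FPKM at 3 h + 1)/(FPKM at 0 h + 1)), so ratios of genes at low levels come out too small. A call needed a ratio of at least 1 in size, bounds that do not overlap, status OK in both conditions and a mean of at least 1 FPKM over the 8 conditions. A bound lay 18.5% of the FPKM away from it at 3 h and 19.7% at 0 h in the median. No p-value was computed. Failed estimates listed at 0 still enter totals and means.

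The members and the 44 gene lists were chosen with earlier results of these data known, and list patterns were trimmed of unrelated symbols. Named genes are the 8 highest and 8 lowest called with a symbol, the 2 highest and 2 lowest of all, up to 3 called members per list and direction, and any member of the ZIP, MTP, copper, iron, carbonic anhydrase, carbon-concentrating, thiamine, tetrapyrrole, superoxide dismutase and tubulin lists. Marker genes and genes said to be singled out are outside it. Alternatives were other pseudocounts, filters, fold thresholds and scalings, and calls without the bounds. Promoter sequences were not analysed here. Python with pandas and numpy was used.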

Additional observations from a re-analysis of the deposited data

How the results depend on the processing

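No paired analysis was possible because the table holds 1 value per condition, and for the same reason no replicate could be left out. For 3 h against 0 h, counts of genes that rose and fell were 672 and 320 with a pseudocount of 5, 138 and 99 with a threshold of 4-fold, 2554 and 1448 with a threshold of 1.5-fold, and 759 and 1065 with equal totals. With a mean FPKM of at least 5, 377 fell. Of the 44 lists, 9 had at least 50% of 3 or more tested members called in 1 direction, against 1 with the 4-fold and 17 with the 1.5-fold threshold.

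Against the early replete culture, higher and lower counts were 573 and 595 with a pseudocount of 0.1, 176 and 180 with 5, 41 and 68 at 4-fold and 1471 and 967 at 1.5-fold, and 237 were lower with a mean of at least 5. Against the late one they were 675 and 255 with a pseudocount of 5, 106 and 108 at 4-fold, 2405 and 1273 at 1.5-fold and 757 and 991 with equal totals, and 345 were lower with a mean of at least 5.

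No called gene that is named changed sign under these alternatives. Of 141 named genes with a call, 124 held it under both rescalings and 126 under every pseudocount and filter tried that tested them. With the 4-fold threshold 91 of the 141 lost their call. Depth is unknown, and variation between cultures cannot be judged.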
